A study of Mus musculus with 45 samples.

Results

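Binding sites of REV-ERBα were examined at 10 autophagy genes of mouse liver, Map1lc3a, Map1lc3b, Gabarapl1, Ulk1, Atg14, Becn1, Sqstm1, Atg5, Atg7 and Tfeb. A site was a peak whose summit, the position of highest signal, lay inside the annotated span of one of these genes or within 50 kb of it. This gave 58 of the 27929 peaks listed at zeitgeber time 10 (ZT10, hour 10 of the light-dark cycle) and 0 of the 36 listed at ZT22, and no site belonged to more than 1 of the 10 genes. The lists come from chromatin immunoprecipitation with sequencing (ChIP-seq) on livers of mice of genotype REV-ERBa3HA/3HA, in which REV-ERBα itself carries the 3HA epitope tag, pulled down with anti-HA magnetic beads. These animals received no AAV virus. There were 4 samples at ZT10 and 4 at ZT22, and peaks had been called on the pool of the 4, so no value below has a spread between replicates and no test compares the times. Age and sex of the mice are not given in the labels. The other 37 of the 45 samples, which include an input library, anti-HA beads on wild-type liver without the tag, histone marks and the corepressor NCOR1, were not analysed here, so how much of a site's signal depends on the tag is not known from these lists.

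Autophagy encloses cytoplasm in a double membrane, the autophagosome, which fuses with a lysosome so that its contents are broken down and recycled. The ULK kinase complex starts the process, a lipid kinase complex around Beclin 1 marks the membrane, an enzyme cascade attaches small ubiquitin-like proteins of the ATG8 family to it, and receptors such as p62 bring in the cargo. In liver it is known to be induced by fasting, to break down lipid droplets, mitochondria and glycogen, and to vary over the day. REV-ERBα is a nuclear receptor that represses transcription with NCOR1 and the deacetylase HDAC3, and in mouse skeletal muscle it is known to repress autophagy genes.

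All 10 genes had at least 1 ZT10 site, as did 70.5% of the 21631 protein-coding genes with the same reach, a background that includes genes not active in liver. The number of sites ran from 1 at Gabarapl1 to 14 at Atg7, with a median of 5.5 where the median over all protein-coding genes was 2. Strength is given as the fold of the summit over its local background, the authors' own value for each peak. Solved from the deposited values, this background was the lowest in the list at 56 of the 58 sites. The same held for 86.8% of all ZT10 peaks. Among such peaks the background is shared, so the fold follows the signal at the summit alone. The fold ran from 4.01 to 23.4 over the 58 sites, with a median of 7.56 beside 6.81 over all ZT10 peaks. Sites of fold 10 or more made up 32.8% (19 of 58), against 27% of the whole list, and those under fold 5 made up 15.5% (9 of 58), against 24.3%. The strongest peak of the whole list had a fold of 152.7. The 2 strongest of these sites, both at Map1lc3b, had 2.5% and 3.93% of the list above them.

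**Figure D1:**
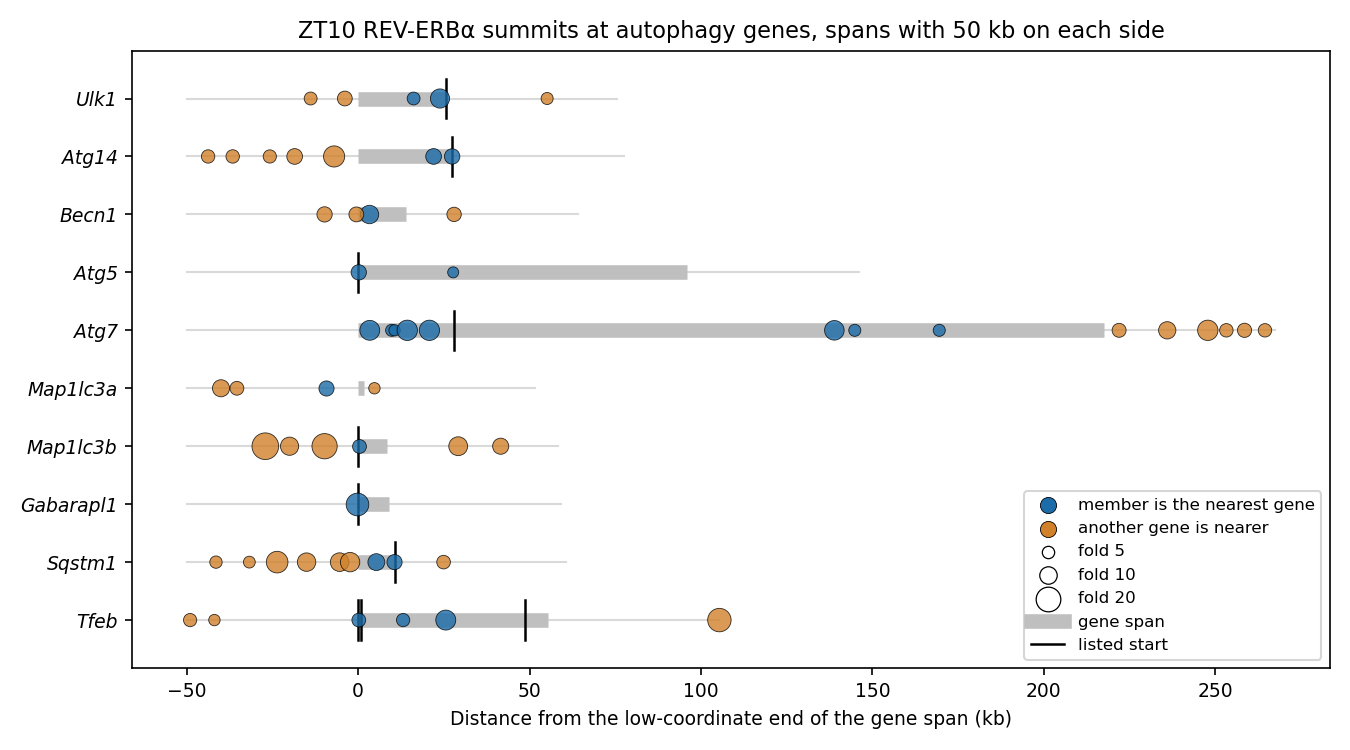
Position of the 58 ZT10 summits at the 10 genes, as the distance in kb from the low-coordinate end of each gene span (grey bar; thin line, 50 kb on each side). Circle area is proportional to the fold, blue circles have the member as the nearest protein-coding gene and orange ones have another gene nearer, and black ticks are transcription starts in the RefSeq promoter table, which lists none for Map1lc3a and Becn1; Atg7 holds 14 sites and Gabarapl1 holds 1.

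Sites close to a transcription start were present at most of the genes. RefSeq promoter windows (300 bases, of which 250 lie before the start, build GRCm38.p6, which shares the mm10 coordinates) were listed for 8 of the 10 genes, all but Map1lc3a and Becn1. A ZT10 summit lay within 1 kb of a listed start at 6 of these 8 genes, Gabarapl1, Sqstm1, Atg14, Map1lc3b, Atg5 and Tfeb, against 34.5% of the 17274 protein-coding genes with a listed start. These 6 sites had folds of 6.26 to 16.9 (median 7.66), and the median over all ZT10 peaks within 1 kb of any listed start was 6.35. At Ulk1 the nearest summit lay 1697 bp after the start, and its peak covered the start. At Atg7 the nearest summit lay 7155 bp before the listed start, which is itself inside the gene span. Another peak, of fold 13, covered the low-coordinate end of that span.

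The summit itself fell inside the promoter window at Gabarapl1, 190 bp before the start, and at Sqstm1, 35 bp after it. Summits fell inside 11.1% of the 21045 windows of protein-coding genes. Both windows are shown 5′ to 3′ in the direction of the gene, with the 21 bases centred on the summit in capitals, because they hold the points of highest signal. That of Gabarapl1 lies at chr6:129532942-129533241 on the plus strand and that of Sqstm1 at chr11:50210771-50211070 on the minus strand.
Gabarapl1: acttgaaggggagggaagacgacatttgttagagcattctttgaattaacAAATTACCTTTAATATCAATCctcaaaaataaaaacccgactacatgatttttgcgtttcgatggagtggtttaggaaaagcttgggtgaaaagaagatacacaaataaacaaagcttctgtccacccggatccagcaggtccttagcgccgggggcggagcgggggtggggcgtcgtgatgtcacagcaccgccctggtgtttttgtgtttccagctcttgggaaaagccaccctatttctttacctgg
Sqstm1: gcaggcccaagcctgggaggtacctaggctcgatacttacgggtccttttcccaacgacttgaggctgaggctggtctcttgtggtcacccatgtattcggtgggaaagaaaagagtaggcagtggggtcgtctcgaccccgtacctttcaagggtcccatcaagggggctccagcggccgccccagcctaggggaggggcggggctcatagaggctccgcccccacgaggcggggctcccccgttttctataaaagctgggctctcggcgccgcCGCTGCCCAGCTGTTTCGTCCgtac
The bases shown in capitals for Gabarapl1 are mostly A and T, and its whole window has 46.3% G and C. The window of Sqstm1 has 63.3%, and the median over all windows was 56.7%.

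The half-site AGGTCA, which REV-ERBα is known to bind after an A- and T-rich run, was found on either strand in 0 of the 10 windows of these genes (Tfeb has 3 listed starts) and in 14.6% of all 21045 windows. The longer monomer site, in which AANT stands directly before this half-site, was in 0 of 10 and in 0.157%. The paired site, with 2 copies of the half-site separated by NN, was in none of either set. AGGTCA was in 12.8% of the windows under a ZT10 peak and in 15.8% of the others, so among promoter windows it was not more frequent under peaks. Any overlap with a peak counted here, which 38.4% of windows had, while 11.1% held a summit. Peaks away from promoter windows are not covered by these shares. The E-box CACGTG, which the clock activators CLOCK and BMAL1 are known to bind, was searched after these results were seen and was present in 3 of the 10 windows, at Atg14, Atg5 and Atg7, and in 7.91% of all windows. The CLEAR motif known for TFEB, the same E-box with GT before it and AC after it, was also searched afterwards and was in 0 of 10 and in 0.423%. The windows of Atg14 (chr14:47568385-47568684, minus strand) and Atg5 (chr10:44268089-44268388, plus strand) are shown because each lies under a ZT10 peak and holds an E-box close to its start, here in capitals.
Atg14: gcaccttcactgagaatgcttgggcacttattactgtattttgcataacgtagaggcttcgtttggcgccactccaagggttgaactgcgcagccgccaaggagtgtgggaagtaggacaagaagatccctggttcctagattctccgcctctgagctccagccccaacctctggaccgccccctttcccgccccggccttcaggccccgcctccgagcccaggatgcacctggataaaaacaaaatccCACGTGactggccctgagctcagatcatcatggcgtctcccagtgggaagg
Atg5: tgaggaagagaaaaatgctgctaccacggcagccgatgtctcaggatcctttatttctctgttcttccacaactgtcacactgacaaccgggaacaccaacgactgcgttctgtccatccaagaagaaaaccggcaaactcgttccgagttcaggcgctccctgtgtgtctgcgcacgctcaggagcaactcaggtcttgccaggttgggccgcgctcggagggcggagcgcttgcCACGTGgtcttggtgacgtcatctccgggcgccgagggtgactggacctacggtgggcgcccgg
In Atg14 the E-box begins at the last base before the start, and the summit lies 102 bp after the start. In Atg5 it begins 14 bases before the start, with the summit 189 bp after it. No genome sequence was used, so motifs outside the promoter windows were not searched. Of the 10 windows, 2 held a summit, at Gabarapl1 and Sqstm1. The summits shortly after the starts of Atg14, Map1lc3b, Atg5 and Tfeb lay past the edge of the window. The sequence at these summits was thus not searched either.

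Ulk1 encodes the kinase that starts autophagosome formation when AMPK is active or mTORC1 is not. It had 5 sites on chromosome 5. The strongest, at chr5:110806456-110810332, had a fold of 12.1 and its summit inside the gene, and the second inside the gene, 9392 bp after the listed start, had a fold of 5.44. These sites thus sat in the first part of the gene in the direction of transcription. At the weaker one the local background was 1.93 times the lowest in the list, which lowers its fold, and its summit held 203 fragments, beside 259 at the stronger one. The 3 sites outside the gene, with folds of 7.22, 5.48 and 4.79, lay inside the neighbours Pus1, Ep400 and Hscb.

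Atg14 and Becn1 encode subunits of the class III PI3-kinase complex that produces the lipid mark of the forming autophagosome. Atg14 had 7 sites on chromosome 14. Both inside the gene lay near its start, at 102 bp with a fold of 7.82 and at 5510 bp with a fold of 8.14. The strongest lay beyond the other end, at chr14:47532576-47536296, 6984 bp outside Atg14 and 1947 bp from Fbxo34, an F-box protein gene, with a fold of 14.7. The remaining 4 lay inside Fbxo34, with folds of 5.75 to 8.1.

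Becn1, the gene of Beclin 1, had 4 sites on chromosome 11. Its strongest was the one inside the gene, at chr11:101290425-101292249, with a fold of 11.2. When any overlap of the peak interval with the reach was counted, the strongest became a peak of fold 22.9 whose summit lay 53755 bp away. The next site lay 492 bp outside the span and inside Cntd1, with a fold of 7.27. The others lay inside Coa3 (7.68), which encodes an assembly factor of cytochrome oxidase, and Psme3 (6.81), which encodes a proteasome activator, with the fold in parentheses. So 3 of the 4 sites near Becn1 lay inside a neighbouring gene.

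Atg5 and Atg7 encode parts of the conjugation machinery. ATG7 is its E1-like activating enzyme, and ATG5 joins ATG12 to form the ligase that attaches ATG8 proteins to lipid. Atg5 had 2 sites on chromosome 10, both inside the gene, with a fold of 7.73 at the start and of 4.01 at 27726 bp after it. The second had 83 fragments at its summit and lay at the lower limit of the list. Atg5 had the weakest strongest site of the 10 genes.

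Atg7 had 14 sites on chromosome 6, a number exceeded by 0.55% of protein-coding genes, but its span of 217478 bp is also the longest of the 10. Relative to window length it had 4.41 sites per 100 kb, a density exceeded by 17.8% of genes. A run of 5 peaks, each under 5 kb from the next, covered 63.4% of the 22528 bp from chr6:114642926-114665453. Its 3 strong peaks had folds of 13, 13.6 and 13.5 and held 279, 292 and 289 fragments, with 95% counting intervals that overlap. The first summit of the run was 3417 bp inside the span, and all 5 lay before the start listed for Atg7 in the promoter table, by 7155 to 24552 bp. A further strong site, with a fold of 12.6, lay 110927 bp after that start. Also deep in the gene were weaker sites of fold 4.79, at 116879 bp, and of fold 4.82, at 141511 bp, where the local background was 1.69 times the lowest in the list. All 6 sites outside the gene lay inside Vgll4, the gene of a transcriptional cofactor, with folds of 5.94 to 13.6. The strongest of these had 291 fragments, 1 fewer than the strongest inside Atg7.

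Map1lc3a, Map1lc3b and Gabarapl1 encode ATG8 family proteins, which coat the autophagosome membrane and bind receptors. The 3 genes differed widely in the number, place and strength of their sites. Map1lc3b on chromosome 8 had 6 sites and the 2 strongest of all 58. The first, at chr8:121561337-121565384, had a fold of 23.4 and lay inside Fbxo31, 27043 bp before the start of Map1lc3b. The second, at chr8:121577106-121586322, was 9217 bp wide with a fold of 21.0, lay in no gene, and was 9759 bp before Map1lc3b and 1815 bp from Fbxo31. By comparison, 4.72% of all ZT10 peaks had a fold of 20 or more. The site at the Map1lc3b start, 154 bp into the gene, was the weakest of its 6, with a fold of 6.3. Inside Fbxo31 there was 1 more site (10.9), and inside Zcchc14 on the other side there were 2 (11.7 and 8.55), with the fold in parentheses.

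Gabarapl1 had the opposite arrangement, with 1 site in its whole window. That peak, at chr6:129524729-129535774, spanned the start, was 11046 bp wide, the widest of the 58, and had a fold of 16.9 with 363 fragments at its summit. It was the strongest start-proximal site of the 10 genes, and 7.91% of all ZT10 peaks were stronger. Because the width of a listed peak can join several neighbouring maxima, 1 listed site need not be 1 bound element.

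Map1lc3a on chromosome 2 had 4 sites and none inside its span of 1710 bp. The strongest, with a fold of 9.61, lay 39957 bp away and 126 bp from Dynlrb1, a dynein light chain gene. A site of fold 7.54, 9245 bp away, was the one for which Map1lc3a was the nearest gene. The others lay inside Dynlrb1 (6.3) and Pigu (4.28), with the fold in parentheses. Map1lc3a was thus the member with no summit within 2 kb, where 47.1% of all protein-coding genes had one and 9 of the 10 did.

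Sqstm1 encodes p62, the receptor that ties ubiquitylated cargo to the ATG8 coat. It had 9 sites on chromosome 11 and the densest window of the 10 genes, with 8.13 sites per 100 kb, exceeded by 2.02% of protein-coding genes. A run of 6 peaks, each under 5 kb from the next, covered 83.3% of the 39661 bp from chr11:50174109-50213769. It passed from the start of Sqstm1 through the whole gene and on into Mrnip, which encodes a DNA repair factor. The summits inside Sqstm1 had folds of 7.59 at the start and 9.38 at 5332 bp after it. The 4 inside Mrnip had folds of 12.4, 11.4, 11.2 and 15.4 in order of distance from Sqstm1, all above those inside Sqstm1. The stronger site inside Sqstm1 had 200 fragments (95% interval 173 to 230.0). Its interval overlapped those of 2 Mrnip sites, with 239 (210 to 271) and 245 (215 to 278) fragments, and not those of the other 2, with 266 (235 to 300) and 330 (295 to 368). The other 3 sites, in Tbc1d9b and beside Mgat4b, had folds of 4.6 to 6.12.

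Tfeb encodes the transcription factor that switches on autophagy and lysosome genes when mTORC1 is inactive. It had 6 sites on chromosome 17. A site 222 bp after its first listed start had a fold of 6.26, a second inside the gene had 5.8, and the strongest inside it, at chr17:47761627-47763559, had 13.1. The last lay 25576 bp into the gene, between the first listed start and one listed farther along. Outside the gene, the strongest site had a fold of 18.1 and lay 49991 bp away, 7716 bp from Mdfi, just inside the reach. The remaining 2 lay among Frs3 and Tomm6, with folds of 5.75 and 4.28. The 3 outermost summits inside the reach of any of the 10 genes, at 46984 to 49991 bp, had folds of 5.75 to 18.1. The 6 next beyond it, at 51145 to 54421 bp, had folds of 4.79 to 22.9, the highest 53755 bp from Becn1.

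**Figure D2:**
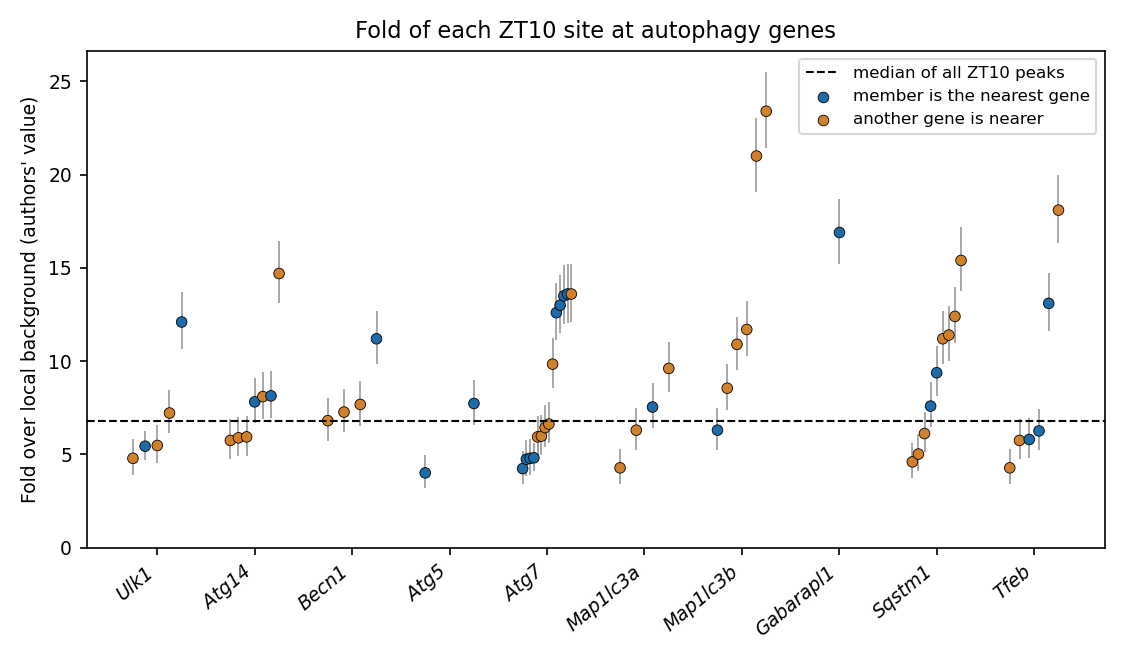
Fold over local background of each ZT10 site, by gene, with the sites of a gene ordered by fold (blue, the member is the nearest protein-coding gene; orange, another gene is nearer; error bars, 95% exact Poisson intervals for the fragments at the summit, counting error only; dashed line, median of all ZT10 peaks, 6.81). Map1lc3b has the 2 highest values, 23.4 and 21.0, and its only blue site has 6.3.

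The 10 genes were ordered by their strongest site with the counts of fragments behind it. All 10 of these sites had the lowest background in the list, so the order by fold is the same. Map1lc3b came first with 506 fragments (95% interval 463 to 552) and Tfeb next with 390 (352 to 431). They were followed by Gabarapl1 with 363, Sqstm1 with 330, Atg14 with 316, Atg7 with 292, Ulk1 with 259, Becn1 with 239, Map1lc3a with 205 and Atg5 with 164 (140 to 191). The intervals of Map1lc3b and Tfeb did not overlap, and those of every other pair of neighbours in this order did. The order depends on the reach: with 2 kb, inside spans or with the nearest gene alone, the strongest fold was 6.3 at Map1lc3b and 13.1 at Tfeb. In the same settings it was 8.14 at Atg14 and 9.38 at Sqstm1. Intervals cover counting error within 1 pool and leave out any difference between livers, and fragments copied by PCR are not independent.

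All 10 genes had a site for which they were the nearest gene, as did 47.4% of protein-coding genes. For 5 of the 10, Gabarapl1, Ulk1, Becn1, Atg5 and Atg7, the strongest site within reach had the member as its nearest gene, for Atg7 by 1 fragment over a site in Vgll4, which is a tie within counting error. For the other 5, Map1lc3a, Map1lc3b, Atg14, Sqstm1 and Tfeb, it was nearer to another gene. Over the 15244 protein-coding genes with a site, the strongest was nearest to the gene itself in 38.1%. Of the 58 sites, 35 (60.3%) were nearer to another gene. Of the 37 outside the spans of the 10 genes, 30 lay inside another gene. Inside the span of any protein-coding gene were 51 of the 58 (87.9%), against 59.4% of all ZT10 peaks. The 58 were taken because they lie in or near a gene, so these shares are not from like sets. Which gene a site acts on was not measured.

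Set against all protein-coding genes, 8 of the 10 had more sites per 100 kb of window than the median gene (1.6), all but Gabarapl1 (0.916) and Atg5 (1.02). The median of the 10 was 3.96, and it was 2.65 over genes with at least 1 site. A site of fold 10 or more was present at 8 of the 10, all but Map1lc3a and Atg5, and at 35.3% of protein-coding genes. A site with a −log10 q of 10 or more was present at all 10 and at 63.8%. The median of the strongest fold was 14.2 over the 10 and 10.0 over all genes with a site. Peaks of 5 kb or wider made up 17.2% of the 58 (10 sites, at Map1lc3b, Gabarapl1, Ulk1, Sqstm1 and Atg7) and 8.43% of the list.

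**Figure D3:**
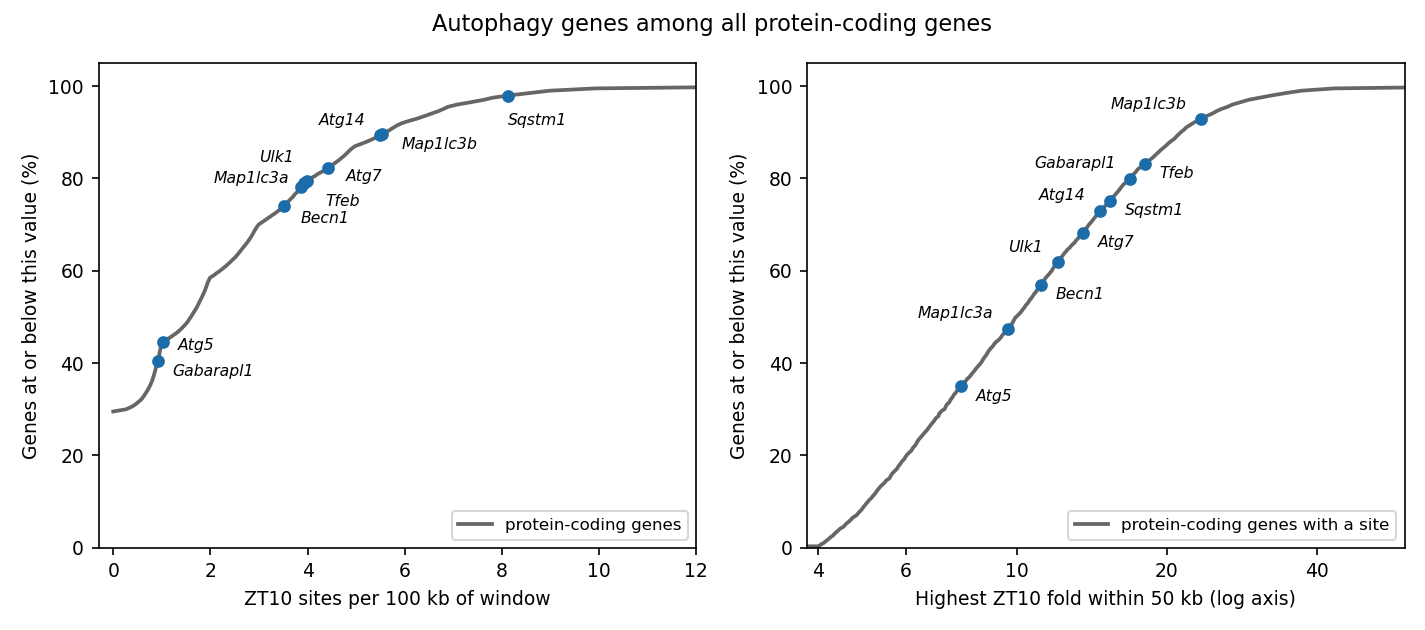
Cumulative share of protein-coding genes by ZT10 sites per 100 kb of the gene span with 50 kb on each side (left, all genes) and by the highest fold in that window (right, log axis, genes with a site), with the 10 members as points on the curves. Sqstm1 lies highest for density (8.13) and Map1lc3b for fold (23.4), while Atg5 is low in both (1.02 and 7.73).

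At ZT22 none of the 10 genes had a site, and 0.157% of protein-coding genes did, so this count is near the background and is not particular to these genes. With a reach of 500 kb it was still 0 of 10, against 1.07%. No ZT22 peak overlapped any of the 58 ZT10 peaks. Chromosomes 2, 6, 8 and 10, which carry Map1lc3a, Gabarapl1, Atg7, Map1lc3b and Atg5, had 0 ZT22 peaks. On the others the nearest ZT22 summit was 4960 kb from Ulk1, 6030 kb from Sqstm1, 12200 kb from Becn1, 19500 kb from Tfeb and 27800 kb from Atg14. The lowest fold listed at ZT22 was 4.08, and signal below the limit of the list is not seen in it. So the 2 sites of Map1lc3b with folds of 23.4 and 21.0 at ZT10 were not in the ZT22 list, and the size of their change cannot be given.

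Most genes of the wider pathway had sites as well. Lists of 10 steps of autophagy and its control held 81 further genes, of which 79 had a ZT10 site within 50 kb (97.5%, against 70.5% of protein-coding genes) and 73 had one within 10 kb (90.1%, against 54.5%). Their median strongest fold within 50 kb was 9.34, where that of all genes with a site was 10.0. With shorter reaches it was slightly above that of all genes, 8.1 beside 7.82 within 10 kb and 7.77 beside 7.31 within 2 kb. The 2 genes with none were Pik3c3 and Pik3r4, which encode the catalytic and the regulatory subunit of the same lipid kinase as Becn1 and Atg14. Other members of that complex had sites, at Uvrag (16.9), Nrbf2 (15.5) and Atg14 (14.7), with the strongest fold in parentheses here and below.

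In the ULK complex, the subunit genes Atg101 (33.0), Atg13 (12.8) and Ulk1 (12.1) had the strongest sites. For Atg101 the strongest with it as the nearest gene had a fold of 11, and Atg13 was the nearest gene of none. Among ATG8 genes, Gabarap (6.27) and Gabarapl2 (5.29) were below the 3 described above. In the list for ATG8 conjugation, Atg4c (14.2), Atg7 (13.6) and Atg12 (13.1) led, and Wipi2 (19.9), Wdr45b (17.2) and Vmp1 (13.4) led the genes of membrane supply. Of the receptors, Bnip3 (22.7) and Fkbp8 (21.0), which act in removal of mitochondria, and Optn (20.6) had the strongest sites. Retreg1 (18.4) also exceeded Sqstm1 (15.4).

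Transcription factor genes had the highest list median, 16.9 over 6 genes, with Foxo3 (21.8), Foxo1 (20.7), both targets of insulin signalling, and Tfeb (18.1) strongest. Genes for fusion of autophagosome and lysosome had the lowest, 6.12 over 9 genes, with Ykt6 (17.8), Vamp8 (13.1) and Rab7 (8.19) strongest. Lysosomal genes were led by Ctsl (19.7), Lipa, the acid lipase (19.5), and Ctsb (18.2), and mTORC1 and AMPK control by Akt1s1 (29.2), Stk11 (24.3), the kinase upstream of AMPK, and Sesn2 (23.4). As among the 10 genes, many of these strongest sites were nearer to a neighbour. Counting those for which the named gene was nearest, the strongest had a fold of 7.22 at Akt1s1, 5.2 at Ykt6, 9.01 at Wipi2, 12.6 at Optn, 14.3 at Stk11, 8.55 at Atg12 and 8.83 at Vamp8.

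**Figure D4:**
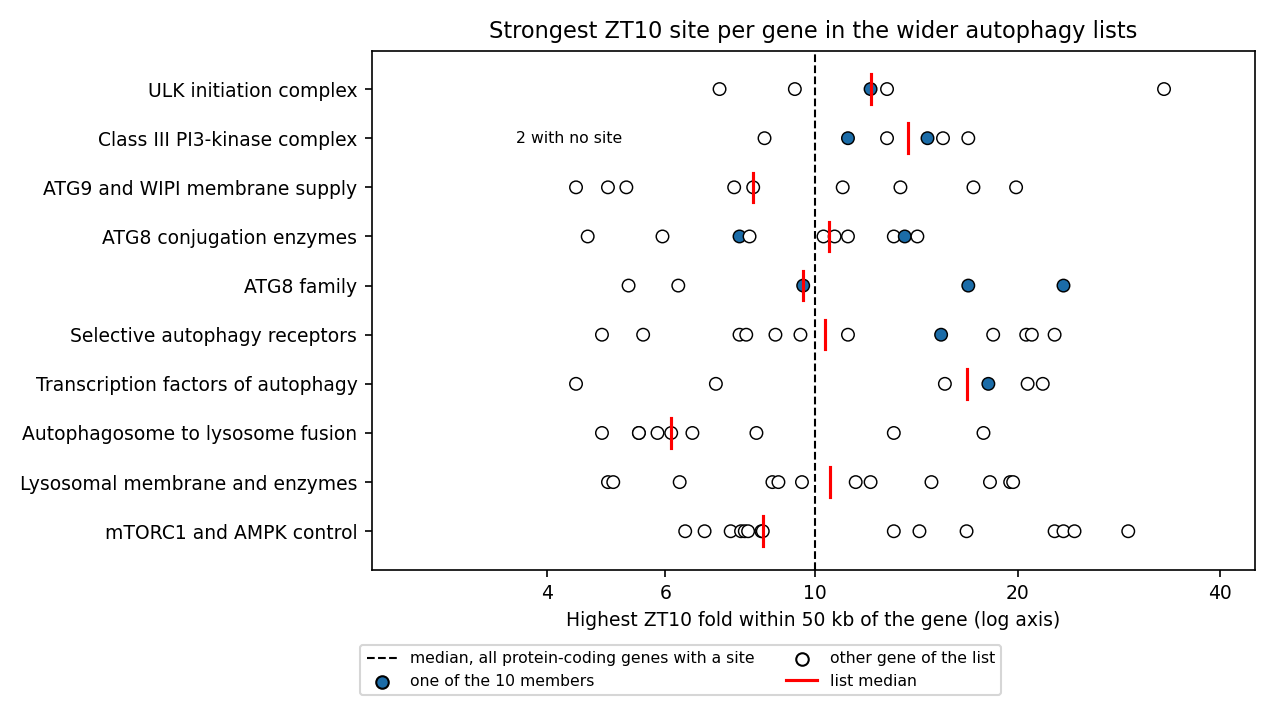
Highest ZT10 fold within 50 kb of each gene (log axis) in 10 lists of autophagy genes (blue, the 10 members; open, other genes; red bar, list median; dashed line, median over protein-coding genes with a site, 10.0). Medians run from 6.12 for fusion genes to 16.9 for transcription factors, and 2 genes of the PI3-kinase complex have no site.

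As a check of the tissue, genes that mark hepatocytes had a ZT10 site within 50 kb in 9 of 9 cases. Their median strongest fold was 23.7, beside 14.2 over the 10 autophagy genes. This order depended on the reach. Over the genes with a site, it was 15.8 beside 12.8 within 10 kb, and 7.87 beside 11.2 within 2 kb. Markers of liver endothelium had one at 7 of 10 genes, near the 70.5% over all protein-coding genes. Those of stellate cells had one at 4 of 10 and those of Kupffer cells at 3 of 10, both below that share. Among those with none were the Kupffer markers Adgre1 and Clec4f and the stellate marker Lrat. Among those with a site were the Kupffer marker Cd68 (8.0) and the stellate marker Acta2 (21.8), with the strongest fold in parentheses. Neither was the nearest gene of a site. The endothelial marker Stab2 (24.2) was above the hepatocyte median. Peaks do not measure RNA, and the livers were not sorted by cell type, so which cells the signal at the autophagy genes came from was not tested.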

How the data were processed

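ChIP-seq was done on nuclei of whole liver, fixed with formaldehyde and EGS, with Tn5 used to build the libraries (per the labels' protocols). The submitters' processing notes name MACS2 2.1.2, BWA 0.7.17, SAMtools 1.9 and Picard 2.18.12 and build mm10, without roles. Which control library the caller used is not given here. The authors deposited 1 pooled peak list per time. Its fold is a ratio of summit to local background in the deposited lists, beside which each peak has its −log10 p and −log10 q, also the authors' values.

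Gene spans came from RefSeq (GRCm38.p6), and the background was the 21631 protein-coding genes of the autosomes and X. All 81 further pathway genes and 39 of 40 markers matched by symbol. Summits were assigned to every gene within 50 kb, in Python 3.11.15 with pandas 2.3.3. Fragments at a summit were solved from the fold (pseudocount 1) and the −log10 p with the Poisson upper tail, taking the solution nearest a whole number, and all 58 sites came within 0.1 of one. Read depth per sample is unknown. Steps were tested on simulated data. Intervals are exact Poisson at 95%.

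The members and lists were chosen with earlier results of these data known. The text names all 10 members, their 3 strongest sites and those within 1 kb of an end, the 3 strongest genes of each pathway list and those without a site; the other sites are given so that all 58 are accounted for. Alternatives were other reaches, limits on fold and −log10 q, peak intervals and the nearest gene only.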

Additional observations from a re-analysis of the deposited data

How the results depend on the processing

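No paired analysis was possible because each time has a single list made from its 4 samples together, which also means that no replicate could be left out. The sites numbered 32 with a reach of 10 kb, 23 with 2 kb, 21 inside spans, 25 with a fold of at least 8 and 23 when the nearest gene alone counted, against 58, and the median per gene was 3, 2, 2, 1.5 and 2, in the same order, against 5.5. A −log10 q of at least 10 left 49, and counting any overlap of the peak interval gave 60. Genes with a site numbered 8 to 10 and their median strongest fold 10.3 to 15 under all 7 alternatives. Single genes moved more. With 2 kb, inside spans or with the nearest gene alone, the strongest fold fell to 6.3 at Map1lc3b and 13.1 at Tfeb. It fell to 8.14 at Atg14 and 9.38 at Sqstm1 in the same settings, and was 22.9 at Becn1 with the peak interval. Density relative to the median gene was 2.48 times, and 1.49 times against genes with a site. A pseudocount of 0 left 17.2% of sites at whole fragments, against 100%. The wider lists had 71 to 79 genes with a site. None of the genes had a ZT22 site with a reach of 500 kb. The weakest site rests on 83 fragments (66.1 to 103), which sets its counting error.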
